A study of Mus musculus with 8 samples.

Results

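Each antibody heavy chain gene in a mature B cell starts with 1 of the many variable (V) segments of the heavy chain locus, named Ighv in the mouse. The deposited expression table held 185 rows whose gene symbol begins with Ighv, of 49315 features in all, and all 185 were taken as members by that name alone. A segment's family is the number after Ighv up to the first hyphen, and the rows fell into 16 families. They comprised 113 segments annotated as functional (IG_V_gene), 70 pseudogenes and 2 further rows of the class IG_LV_gene. The 185 rows carried 183 distinct symbols, and all lay on mouse chromosome 12 (GRCm38), 2 of them on the plus strand.

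Total B cells of the spleen were taken from mice aged 4 months, and their poly(A)-enriched RNA was sequenced. The UMPS_BKO group (FcγRIIB-/-/UMPSBKO, 4 libraries) came from mice with a B cell deletion of Umps, which encodes the enzyme that completes uridine monophosphate in de novo pyrimidine synthesis. The control group (FcγRIIB-/-/CD23Cre+, 4 libraries) carried the Cre transgene, named for CD23, a receptor of mature B cells, and the labels do not name the Cre of the UMPS_BKO mice. All mice of both groups lacked FcγRIIB, an inhibitory Fc receptor, in a model of spontaneous autoimmunity resembling lupus. The labels do not say whether replicates were separate animals, and the p-values therefore reflect the scatter of these libraries alone, part of which may be technical.

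During B cell development, recombination joins 1 V segment to a diversity and a joining segment, and the resulting exon encodes the antigen-binding end of the heavy chain. The promoter of the chosen V segment then drives transcription of the whole heavy chain gene, so V segment reads in B cell RNA largely report which segments the cells in the sample had rearranged.

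The V exons below, from the first base after the leader to the cysteine codon, are those of the segments with the highest level in each UMPS_BKO library (Ighv5-4, Ighv7-3, Ighv6-6 and Ighv10-3 in replicates 1 to 4) and the highest in control replicates 3 and 4 (Ighv1-26). They also include the 2 segments that passed the test between groups (Ighv11-2 and Ighv5-16) and Ighv11-1, the closest relative of Ighv11-2. They are from the GENCODE M21 transcripts of GRCm38, minus strand. Their positions are chr12:113597454-113597741, chr12:114153190-114153483, chr12:114434794-114435087, chr12:114523449-114523742, chr12:114788378-114788665, chr12:114048249-114048536, chr12:113981887-113982174 and chr12:113838534-113838821, in the order printed. Capitals mark the motif TANTNCTGT, the codons for tyrosine, tyrosine or phenylalanine, and the conserved cysteine at the end of framework region 3, close to the junction with the diversity segment.
Ighv5-4: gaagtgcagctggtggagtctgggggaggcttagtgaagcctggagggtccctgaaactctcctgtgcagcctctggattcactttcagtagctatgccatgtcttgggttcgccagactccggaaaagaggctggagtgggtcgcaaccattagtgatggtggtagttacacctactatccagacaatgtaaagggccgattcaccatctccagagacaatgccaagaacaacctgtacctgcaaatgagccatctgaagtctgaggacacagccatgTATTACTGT
Ighv7-3: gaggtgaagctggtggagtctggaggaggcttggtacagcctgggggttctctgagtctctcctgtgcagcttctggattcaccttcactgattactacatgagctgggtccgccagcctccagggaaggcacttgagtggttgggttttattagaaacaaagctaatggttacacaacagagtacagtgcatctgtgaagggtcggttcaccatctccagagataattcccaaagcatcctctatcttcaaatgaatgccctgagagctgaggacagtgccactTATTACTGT
Ighv6-6: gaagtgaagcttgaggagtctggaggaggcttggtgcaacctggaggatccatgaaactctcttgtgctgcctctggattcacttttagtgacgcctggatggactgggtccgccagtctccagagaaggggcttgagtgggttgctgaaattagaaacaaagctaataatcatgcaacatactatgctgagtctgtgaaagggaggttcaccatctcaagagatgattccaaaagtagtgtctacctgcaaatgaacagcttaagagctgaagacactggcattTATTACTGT
Ighv10-3: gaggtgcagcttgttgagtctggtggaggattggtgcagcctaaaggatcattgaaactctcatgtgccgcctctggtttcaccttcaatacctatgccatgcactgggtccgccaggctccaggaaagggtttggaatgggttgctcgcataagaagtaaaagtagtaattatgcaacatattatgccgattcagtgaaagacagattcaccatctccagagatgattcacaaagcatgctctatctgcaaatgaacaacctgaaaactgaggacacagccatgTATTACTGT
Ighv1-26: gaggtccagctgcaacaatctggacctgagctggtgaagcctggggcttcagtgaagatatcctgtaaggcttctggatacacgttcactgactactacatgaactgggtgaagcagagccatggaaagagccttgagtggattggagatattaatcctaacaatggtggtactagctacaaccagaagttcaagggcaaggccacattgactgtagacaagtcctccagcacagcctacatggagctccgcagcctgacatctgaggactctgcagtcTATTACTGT
Ighv11-2: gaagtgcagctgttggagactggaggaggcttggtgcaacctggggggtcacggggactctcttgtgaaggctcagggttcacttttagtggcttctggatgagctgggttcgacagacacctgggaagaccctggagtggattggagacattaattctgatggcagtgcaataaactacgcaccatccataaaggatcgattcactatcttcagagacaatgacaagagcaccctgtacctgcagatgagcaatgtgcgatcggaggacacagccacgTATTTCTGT
Ighv11-1: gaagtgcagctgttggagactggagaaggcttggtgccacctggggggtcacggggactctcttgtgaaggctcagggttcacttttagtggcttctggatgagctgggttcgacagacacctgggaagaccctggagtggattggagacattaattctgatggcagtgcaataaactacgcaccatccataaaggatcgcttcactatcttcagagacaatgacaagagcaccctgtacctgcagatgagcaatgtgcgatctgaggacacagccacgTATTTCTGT
Ighv5-16: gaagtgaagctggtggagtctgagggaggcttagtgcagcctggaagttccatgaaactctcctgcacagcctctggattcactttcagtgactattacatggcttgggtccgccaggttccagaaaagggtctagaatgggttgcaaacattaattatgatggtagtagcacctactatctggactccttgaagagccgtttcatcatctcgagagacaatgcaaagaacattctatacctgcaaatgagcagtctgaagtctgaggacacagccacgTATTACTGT
The motif was found on the coding strand of 137 of the 185 V exons, among them 102 of the 113 functional segments, and on the other strand of 1. In this search N stood for any base and the reading frame was not checked, so a match can also hold other codons. Ighv11-2 and Ighv11-1 were 98.7% identical over the V exon and differed by 4 substitutions, G26A, A38C, A201C and G264T (Ighv11-2 base first, positions from 1 at the first base printed). The 4 segments that led the UMPS_BKO libraries were between 74.0% and 78.0% identical to each other, as members of 4 different families. Of the 94 functional segments read in at least 1 library, 13 had a relative at least 98% identical over the V exon, so reads of these could have been split or lost between copies.

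Summed over all 185 rows, the Ighv level was lower in 3 of the 4 UMPS_BKO libraries than in any control, and the remaining UMPS_BKO library lay within the control range. TPM, the unit of the table, is the read number divided by transcript length and scaled to the same total in every library. The sum was 1422, 70.9, 189 and 21.8 TPM in UMPS_BKO replicates 1 to 4, against 439, 6597, 9044 and 1670 TPM in control replicates 1 to 4. The groups overlapped because UMPS_BKO replicate 1 exceeded control replicate 1. In bulk RNA, fewer B cells and less heavy chain RNA per B cell cannot be told apart.

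The mean log2 sum was 4.17 lower in UMPS_BKO (log2 difference −4.17), and −0.85 where UMPS_BKO replicates 2, 3 and 4 were left out. Related to the constant region of IgM, the gene Ighm, the Ighv sum was 41.5, 19.4, 28.8 and 18.0 per 100 TPM of Ighm in UMPS_BKO, against 28.0, 162, 155 and 39.6 in controls. These ratios overlapped, with UMPS_BKO replicates 1 and 3 above control replicate 1, and UMPS_BKO replicate 1 also above control replicate 4. Per 100 TPM of all heavy chain constant regions together, the Ighv sum was 28.2, 11.9, 17.3 and 12.5 in UMPS_BKO. The controls had 15.7, 44.5, 70.5 and 27.1 on that scale, again overlapping. On the Ighm scale the log2 difference was −1.51. It was −2.63 relative to the mean of the pan-B cell genes described below, and −3.39 with ribosomal RNA-like and mitochondrial features left out of the total.

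**Figure D1:**
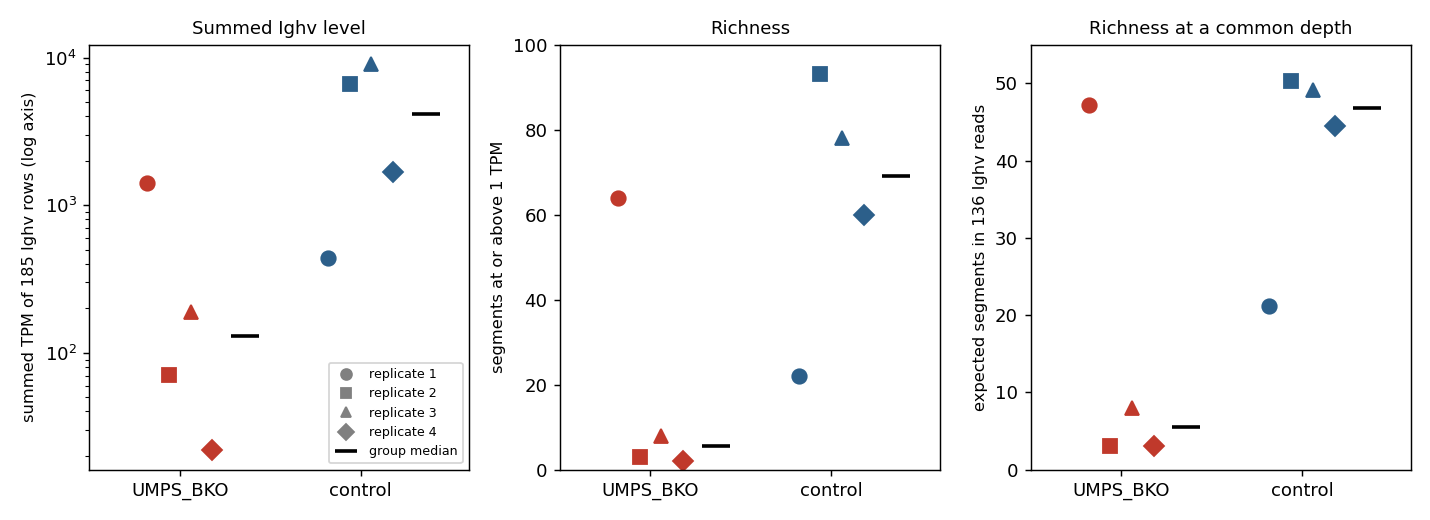
Summed TPM of the 185 Ighv rows (left, log axis), number of segments at or above 1 TPM (middle) and number expected in 136 Ighv reads (right), by library, UMPS_BKO in red and control in blue; the bar is the group median. UMPS_BKO replicates 2, 3 and 4 sit below every control in all panels, and UMPS_BKO replicate 1 sits above control replicate 1.

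The libraries also differed in composition. Recovered depth was 10.6 to 28.6 in UMPS_BKO and 5.81 to 18.8 in controls, in units of 1000000 reads. Ribosomal RNA-like and mitochondrial features together took 53.1%, 79.7%, 66.8% and 54.8% of TPM in UMPS_BKO, against 69.4%, 13.6%, 15.9% and 44.2% in controls. UMPS_BKO replicates 1 and 4, with the highest and the lowest Ighv sum of their group, were close in both measures. Control replicates 2 and 3, with the highest Ighv sums of all libraries, had the lowest such shares (13.6% and 15.9%). For a list of 16 pan-B cell genes the average log2(TPM + 1) stood at 8.16, 6.56, 7.02 and 4.91 in UMPS_BKO, against 7.47, 8.27, 8.74 and 8.32 in controls, with none of the 16 at 0 in any library. Plasma cell markers (10 genes), of cells that secrete antibody and are rich in heavy chain RNA, took 0.0902%, 0.0197%, 0.0380% and 0.00712% of TPM in UMPS_BKO, against 0.0653%, 0.294%, 0.178% and 0.120% in controls. Of the 10, 1, 5, 4 and 4 were at 0 in UMPS_BKO and 2, 1, 1 and 1 in controls. As for the Ighv sum, UMPS_BKO replicates 2, 3 and 4 lay below every control and UMPS_BKO replicate 1 above control replicate 1. Erythroid markers (7 of 8 found) took 0.416% to 4.69% of TPM in UMPS_BKO and 0.0116% to 0.0513% in controls. Skeletal muscle markers took 9.70% in UMPS_BKO replicate 4, and hepatocyte markers 3.50% in control replicate 2 and 1.08% in control replicate 3. Beyond the rescaled differences of the sum given above, the part of these differences in the Ighv results was not tested. Markers of pro- and pre-B cells were nearly absent, all 5 at 0 in 5 of the 8 libraries. The deleted gene Umps was at 5.99, 1.05, 13.6 and 2.16 TPM in UMPS_BKO, against 16.1, 35.1, 18.6 and 8.98 TPM in controls, overlapping groups with a log2 difference of −1.88 ± 0.76 (SE; limma, adjusted p = 0.283).

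Of the 185 rows, 101 were above 0 in at least 1 library and 84 were at 0 in all 8. The 101 comprised 94 functional segments and 7 pseudogenes, each of the 7 read in 1 control and in no UMPS_BKO library. Both groups shared 66 segments, 33 were read in controls only and 2 in UMPS_BKO only. Those 2 were Ighv11-1 and Ighv8-2, at 3.01 and 14.8 TPM in UMPS_BKO replicate 1. No segment was read in all 8 libraries, and Ighv1-39 came closest, above 0 in 7. It was at 37.1, 0, 0.214 and 0.360 TPM in UMPS_BKO, against 24.2, 42.5, 132 and 18.9 TPM in controls.

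Richness, the number of segments at or above 1 TPM, was 64, 3, 8 and 2 in UMPS_BKO, against 22, 93, 78 and 60 in controls. UMPS_BKO replicate 1 had more segments than 2 of the controls, so the groups overlapped, while the other 3 UMPS_BKO libraries lay below every control. Families with a segment above 0 numbered 13, 2, 5 and 2 in UMPS_BKO, against 7, 15, 14 and 14 in controls.

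Ighv reads recovered from the table numbered 9925, 249, 912 and 136 in UMPS_BKO, against 2055, 14139, 8226 and 6668 in controls. At the smallest of these depths, 136 reads, the expected number of segments was 47.2, 3.00, 7.92 and 3.00 in UMPS_BKO, against 21.2, 50.3, 49.2 and 44.5 in controls. Brought to equal Ighv read depth, the libraries kept the same split, with UMPS_BKO replicates 2, 3 and 4 below every control and UMPS_BKO replicate 1 above control replicate 1. Equal reads are not equal numbers of RNA molecules, since PCR copies count as separate reads. The part of molecule number in this split was not tested.

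In the poor libraries the few segments present were read many times. The median number of reads per detected segment was 103, 72, 101 and 66 in UMPS_BKO, against 94.5, 83, 61.5 and 88 in controls. Detected segments with fewer than 10 reads numbered 3, 0, 2 and 1 in UMPS_BKO, against 0, 6, 7 and 4 in controls. A segment at 0 reads in UMPS_BKO replicate 4 could still hold up to 2.21% of its Ighv reads, and up to 1.20% in UMPS_BKO replicate 2, the share that 3 reads would be. PCR copies are not independent molecules, so these limits and the intervals below cover counting error only.

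**Figure D2:**
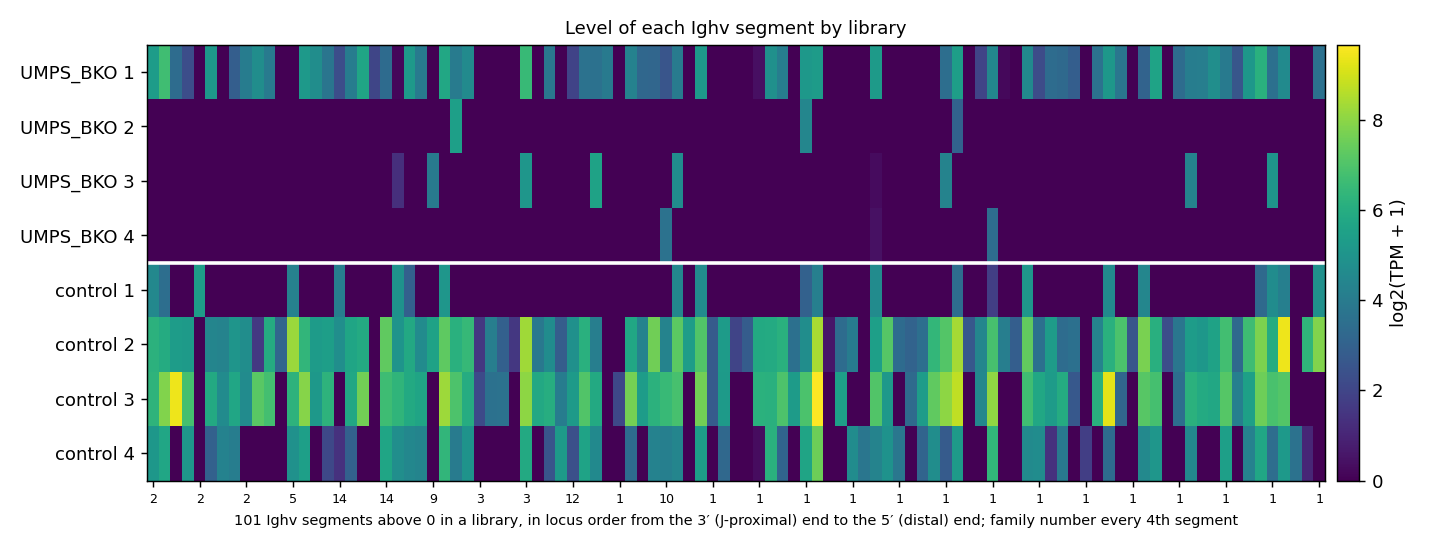
Level of each of the 101 segments read in a library, as log2(TPM + 1), with libraries in rows (UMPS_BKO above the white line, control below it) and segments in locus order from the 3′ end, nearest the joining segments, to the 5′ end; numbers under the axis are families. UMPS_BKO replicates 2, 3 and 4 hold 3, 9 and 3 isolated segments spread along the locus, whereas UMPS_BKO replicate 1 and control replicates 2, 3 and 4 are filled along most of it.

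UMPS_BKO replicates 2, 3 and 4 held 14 different segments between them, and nearly every one was present in just 1 of the 3. UMPS_BKO replicate 2 held Ighv7-3, Ighv1-22 and Ighv1-53, with 152, 72 and 25 reads. UMPS_BKO replicate 3 held Ighv6-6, Ighv3-6, Ighv1-81, Ighv1-7, Ighv1-72, Ighv1-52 and Ighv9-2, with 221 to 67 reads, and Ighv11-2 and Ighv1-39 with 9 and 1. UMPS_BKO replicate 4 held Ighv10-3 and Ighv1-55, with 68 and 66 reads, and Ighv1-39 with 2. Replicates 2 and 3 shared no segment, replicates 2 and 4 none, and replicates 3 and 4 only Ighv1-39. All 3 segments of replicate 2, all 3 of replicate 4 and all 9 of replicate 3 were also read in control replicate 2, which held 94. With 3, 9 and 3 segments held, no pair of these 3 libraries could share more than 3. How far the little sharing follows from such small sets was not tested. The controls held 22 to 94 segments and UMPS_BKO replicate 1 held 67. Among these larger sets 19 segments were read in all 4 controls, and 18 of the 19 in UMPS_BKO replicate 1 as well.

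Dominance, the share of the Ighv sum held by the leading segment, was 7.32%, 60.4%, 24.6% and 52.3% in UMPS_BKO, against 9.29%, 10.4%, 8.97% and 11.1% in controls. UMPS_BKO replicate 1 lay below every control and the other 3 UMPS_BKO libraries above every control. The leaders were Ighv5-4, Ighv7-3, Ighv6-6 and Ighv10-3 in UMPS_BKO replicates 1 to 4, against Ighv2-4, Ighv1-82, Ighv1-26 and Ighv1-26 in control replicates 1 to 4.

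Counted in reads, Ighv7-3 held 152 of 249 in UMPS_BKO replicate 2 (61.0%, 95% Wilson interval 54.9% to 66.9%). Ighv6-6 held 221 of 912 in replicate 3 (24.2%, 21.6% to 27.1%), and Ighv10-3 held 68 of 136 in replicate 4 (50.0%, 41.7% to 58.3%). Among the controls the highest such share was that of Ighv1-82 in replicate 2, with 1550 of 14139 reads (10.96%, 10.5% to 11.5%). The intervals of UMPS_BKO replicates 2, 3 and 4 lay wholly above it. These libraries held 3, 9 and 3 segments, so few that an equal split would also put the leader above every control. The same holds for the TPM shares given before, so both follow from the low richness and are no separate result.

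The first 5 segments together held 25.9%, 100%, 81.4% and 100% of the Ighv sum in UMPS_BKO, against 37.4%, 29.7%, 31.5% and 28.5% in controls. UMPS_BKO replicates 2 and 4 held 3 segments each, so their share was bound to be 100%. The effective number of segments, the inverse Simpson index of the TPM shares, was 35.97, 2.17, 6.24 and 2.06 in UMPS_BKO, against 17.9, 31.7, 30.9 and 30.1 in controls. UMPS_BKO replicate 1 had the highest effective number of all 8 libraries, and control replicate 1 the lowest of the controls. This index depends on the number of segments as well as on evenness, so it does not rank the libraries by evenness. It cannot exceed the number of segments read, 3 in each of UMPS_BKO replicates 2 and 4.

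**Figure D3:**
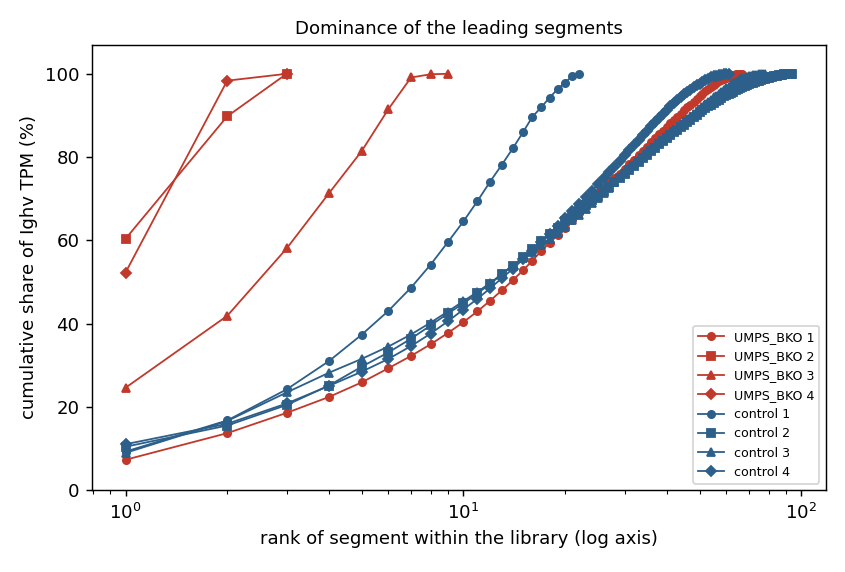
Cumulative share of the Ighv sum (%) against the rank of the segment within its library (log axis), UMPS_BKO in red and control in blue. The curves of UMPS_BKO replicates 2 and 4 reach 100% at rank 3 and that of replicate 3 at rank 9. These ranks are the numbers of segments those libraries held. UMPS_BKO replicate 1 runs along control replicates 2, 3 and 4.

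Family 1, the largest family of the mouse locus, with 93 of the 185 rows, was the sole family read in all 8 libraries. It held 44.2%, 39.6%, 49.8% and 47.7% of the Ighv sum in UMPS_BKO, against 52.4%, 62.7%, 54.0% and 54.96% in controls. Every UMPS_BKO share lay below every control share, which held for 1 of the 15 families read at all. In UMPS_BKO replicates 2, 3 and 4 the family 1 share rested on 2, 5 and 2 segments, against 13 to 49 in the controls, and on 34 in UMPS_BKO replicate 1. Without UMPS_BKO replicates 2, 3 and 4 the mean share of family 1 differed from the controls by −11.8 percentage points, and with all libraries by −10.7.

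Families 2 and 5, whose segments lie mostly at the 3′ end of the locus next to the diversity segments, were read in all 4 controls and in UMPS_BKO replicate 1 alone. Family 5 held 14.7%, 0%, 0% and 0% in UMPS_BKO, against 6.39%, 8.20%, 10.03% and 10.7% in controls. Family 2 held 7.45%, 0%, 0% and 0% in UMPS_BKO, against 14.2%, 3.90%, 10.6% and 3.10% in controls. Families 8 and 14 had the same pattern, read in 4 controls and in 1 UMPS_BKO library. Thus 7 families were read in all 4 controls, and 1 in all 4 UMPS_BKO libraries. Since UMPS_BKO replicates 2 and 4 held segments of 2 families each, no more than 2 families could be read in all 4.

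By region, families 1 and 8, which fill the 5′ part of the locus, held 50.3%, 39.6%, 49.8% and 47.7% in UMPS_BKO, against 59.9%, 66.5%, 56.8% and 58.8% in controls. The families other than 1, 2, 5 and 8, most of which lie between these regions, held 27.6%, 60.4%, 50.2% and 52.3% in UMPS_BKO, against 19.5%, 21.4%, 22.6% and 27.4% in controls. The lowest UMPS_BKO value and the highest control value of that last share were nearly equal. No p is given for shares, since they are scores over the members.

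The smaller families were uneven. Family 7 held 60.4% of UMPS_BKO replicate 2 through Ighv7-3, family 6 held 24.6% of replicate 3 through Ighv6-6, and family 10 held 52.3% of replicate 4 through Ighv10-3. In controls, families 6, 7 and 10 were at 0 in replicate 1 and held 1.09% to 4.19% each in replicates 2, 3 and 4. Family 13 was read in 3 controls and family 15 in 1, neither in UMPS_BKO, and the single row of family 16 was at 0 throughout.

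**Figure D4:**
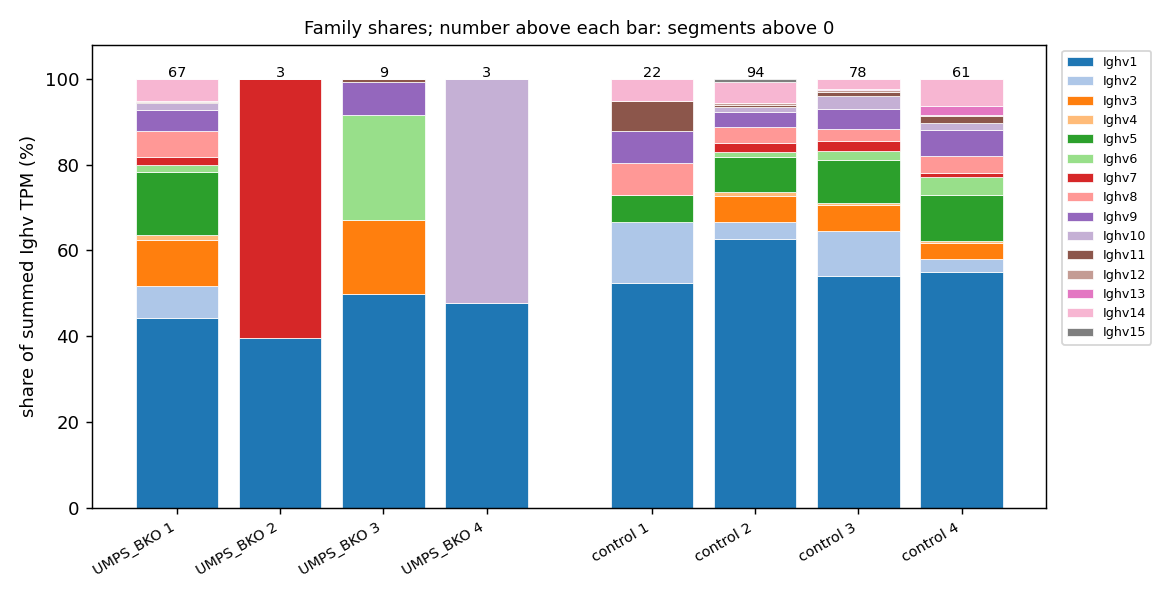
Share of the Ighv sum (%) held by each family in each library, UMPS_BKO left and control right, with the number of segments above 0 printed over each bar. The bars of UMPS_BKO replicates 2 and 4 consist of 2 families each, and family 1 takes 39.6% to 49.8% in UMPS_BKO and 52.4% to 62.7% in controls.

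Two-sided tests came from limma on log2(TPM + 1) over the 10708 genes with at least 1 TPM in at least 4 libraries, with Benjamini-Hochberg adjustment over all of them. Of the 185 Ighv rows 48 passed this filter, and 137 did not, 53 of which were above 0 in a library. At an adjusted p under 0.05, 2 of the 48 were lower in UMPS_BKO, beside 0.0934% of all tested genes, and 0 were higher, beside 0.0374%. At an unadjusted p under 0.05, 29 of the 48 were lower (60.4%), beside 16.4% of all tested genes, and 0 were higher, beside 0.925%. The groups did not overlap in 4 of the 48, UMPS_BKO below, beside 4.81% of all tested genes.

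All 48 had a log2 difference below 0, beside 84.3% of all tested genes. Their median was −3.27 (range −6.11 to −1.34), against −0.90 over all genes tested. With libraries scaled by the median of ratios these medians became −2.74 and −0.15, and with quantile normalization −2.37 and −0.02. Without UMPS_BKO replicates 2, 3 and 4 the median of the tested segments was −0.26. The filter favoured segments high in controls: 37 of the 48 reached 1 TPM in at most 1 UMPS_BKO library, so these counts and medians describe the tested segments and are no support for a difference of the locus. Of the 48, 35 were at 0 in UMPS_BKO replicates 2, 3 and 4 together (72.9%), beside 2.89% of all tested genes, and 47 were above 0 in UMPS_BKO replicate 1.

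Ighv11-2 (ENSMUSG00000096108, chr12:114048241-114048812) is a segment known for its use by B-1 cells, in antibodies that bind phosphatidylcholine. It was at 0.115, 0, 1.47 and 0 TPM in UMPS_BKO, against 29.7, 31.3, 80.1 and 26.6 TPM in controls. Every UMPS_BKO library lay below every control, including UMPS_BKO replicate 1, whose Ighv sum was above that of control replicate 1. The values rested on 1, 0, 9 and 0 reads in UMPS_BKO, against 174, 84, 91 and 133 reads in controls. The mean was 0.396 ± 0.718 TPM in UMPS_BKO and 41.9 ± 25.5 TPM in controls (SD, n = 4 each). On the log2 scale UMPS_BKO minus control was −4.91 ± 0.67 (SE; adjusted p = 0.0186, limma). The controls of Ighv11-2 met the filter without any UMPS_BKO library, so this test is given as a description. UMPS_BKO replicate 1 also held 20 reads of the near-identical Ighv11-1, printed above, which no other library held. The rule for counting reads that match both segments was not stated in the labels or processing notes. Summed over both segments, family 11 was at 3.12, 0, 1.47 and 0 TPM in UMPS_BKO, against 29.7, 31.3, 80.1 and 26.6 TPM in controls, the sole family whose summed TPM did not overlap between groups.

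Ighv5-16 (ENSMUSG00000094194, chr12:113838526-113839010), a family 5 segment of the 3′ region, was at 0 in all 4 UMPS_BKO libraries, against 17.8, 298, 75.8 and 28.9 TPM in controls. No UMPS_BKO library held a read of it, against 86, 660, 71 and 119 reads in controls. Set against a floor of 3 reads per UMPS_BKO library, a mean of 0.579 TPM, the control mean of 105 ± 131 TPM (SD, n = 4) was at least 182-fold higher. This bound compares means only, and control replicate 2 at 298 TPM lay far above the other controls. UMPS_BKO replicates 2 and 4 held 249 and 136 Ighv reads in all. A segment at 0 reads there could still hold up to 1.20% and 2.21% of them. The fitted log2 difference, −5.91 ± 0.84 (SE; limma, adjusted p = 0.0187), depends on the pseudocount and is no bound. Of the 48 tested segments Ighv5-16 was the 1 with no UMPS_BKO library at 1 TPM or more. It passed the filter through the controls alone, so its test was bound to show a difference and is given as a description. In 19 of the 48, Ighv5-16 and Ighv11-2 among them, all 4 controls reached 1 TPM and so met the filter by themselves. The tests of all 19 are descriptions for that reason. With Ighv5-16 at its bound the median of the tested segments remained −3.27. Its closest relative, Ighv5-12, was 86.7% identical.

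Both calls depended on single libraries and on the settings. For Ighv11-2 the limma adjusted p was 0.0833 without UMPS_BKO replicate 2, 0.0529 without UMPS_BKO replicate 3, 0.0843 without control replicate 3 and 0.0604 without control replicate 4. For Ighv5-16 it was 0.0833, 0.0586, 0.0843 and 0.0604 when these were left out in the same order, and 0.0510 when UMPS_BKO replicate 4 was. Without a filter on low values the adjusted p (limma) was 0.186 for Ighv11-2 and 0.300 for Ighv5-16. With a pseudocount of 0.1 it was 0.0521 for Ighv11-2, and with a pseudocount of 5 it was 0.0600 for Ighv5-16. With ribosomal RNA-like and mitochondrial features left out, it was 0.0600 for Ighv11-2. Over the 8 single omissions the number of Ighv segments called lower ran from 0 to 14, with 14 when UMPS_BKO replicate 1 was left out, 5 for control replicate 1, 2 for control replicate 2, 1 for UMPS_BKO replicate 4 and 0 for each of UMPS_BKO replicates 2 and 3 and control replicates 3 and 4.

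The 2 other segments whose groups did not overlap missed the threshold. Ighv1-69 was at 7.41, 0, 0 and 0 TPM in UMPS_BKO, against 20.6, 209, 142 and 22.6 TPM in controls (log2 difference −5.20 ± 0.97, SE; limma, adjusted p = 0.0899). Ighv8-8 was at 23.0, 0, 0 and 0 TPM in UMPS_BKO, against 32.8, 160, 103 and 23.7 TPM in controls (log2 difference −4.79 ± 1.06, SE; limma, adjusted p = 0.152). For Ighv8-8 the margin was narrow, since UMPS_BKO replicate 1 and control replicate 4 were nearly level.

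The segments that led control libraries were overlapping or untested. Ighv1-26, with the largest log2 difference in size of the tested segments, was at 38.4, 0, 0 and 0 TPM in UMPS_BKO, against 16.8, 336, 812 and 185 TPM in controls (−6.11 ± 1.33, SE; limma, adjusted p = 0.144). Ighv1-82 was at 23.4, 0, 0 and 0 TPM in UMPS_BKO, against 17.1, 689, 135 and 35.6 TPM in controls (−5.32 ± 1.25, SE; limma, adjusted p = 0.186). In both, UMPS_BKO replicate 1 lay above control replicate 1. Ighv2-4 was read in control replicate 1 alone, at 40.7 TPM, and was not tested.

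**Figure D5:**
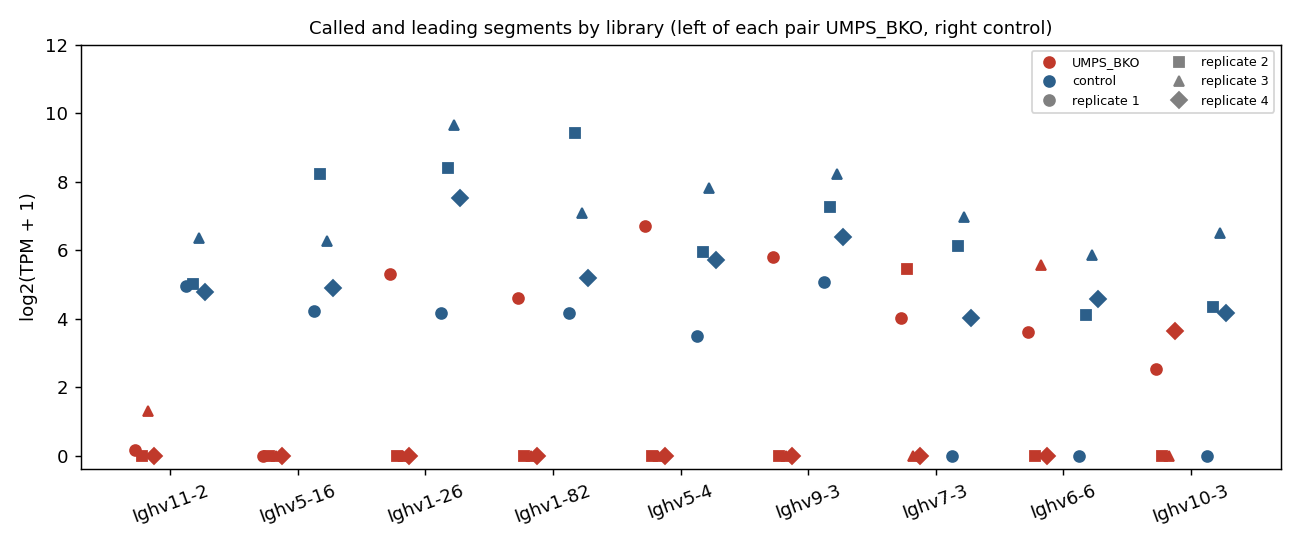
Level as log2(TPM + 1) of the 2 called segments (Ighv11-2 and Ighv5-16) and of 7 leading segments, with UMPS_BKO in red left of control in blue and 1 symbol per replicate. Ighv11-2 and Ighv5-16 show no overlap, whereas Ighv7-3, Ighv6-6 and Ighv10-3, the leaders of UMPS_BKO replicates 2, 3 and 4, are at 0 in control replicate 1.

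The segments that led UMPS_BKO libraries were also read in controls. Ighv5-4 was at 104, 0, 0 and 0 TPM in UMPS_BKO, against 10.2, 60.6, 224 and 51.3 TPM in controls. Ighv7-3 was at 15.3, 42.8, 0 and 0 TPM in UMPS_BKO, against 0, 68.9, 125 and 15.3 TPM in controls. Ighv6-6 was at 11.2, 0, 46.6 and 0 TPM in UMPS_BKO, against 0, 16.3, 56.8 and 22.8 TPM in controls. Each of these 3 had overlapping groups, and in each at least 1 control had a higher level than the UMPS_BKO library it led. Ighv10-3 was at 4.79, 0, 0 and 11.4 TPM in UMPS_BKO, against 0, 19.1, 89.3 and 17.1 TPM in controls, again overlapping through control replicate 1. Their log2 differences were −4.06 ± 1.42, −1.91 ± 1.55, −1.34 ± 1.42 and −2.21 ± 1.27 (SE; limma, adjusted p = 0.283, 0.449, 0.557 and 0.334) for Ighv5-4, Ighv7-3, Ighv6-6 and Ighv10-3.

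Other segments known from textbook responses were read as follows. Ighv12-3, like Ighv11-2 a segment of phosphatidylcholine-binding B-1 cells, was at 2.86, 0, 0 and 0 TPM in UMPS_BKO, against 0, 28.2, 37.9 and 4.18 TPM in controls. Its groups overlapped through control replicate 1, and its log2 difference of −2.64 ± 1.06 did not pass (SE; limma, adjusted p = 0.283). Ighv1-72, the segment of the C57BL/6 response to the hapten NP, was at 16.2, 0, 19.2 and 0 TPM in UMPS_BKO, against 0, 39.4, 70.7 and 21.9 TPM in controls, with a log2 difference of −1.89 ± 1.39 (SE; limma, adjusted p = 0.412). It was 99.0% identical to Ighv1-62-3. Ighv5-2, the 3′ functional segment rearranged early in development, was at 0 in every library.

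Among other abundant members, Ighv9-3 was at 54.3, 0, 0 and 0 TPM in UMPS_BKO, against 32.8, 152, 301 and 81.8 TPM in controls. Its groups overlapped through control replicate 1 (log2 difference −5.29 ± 1.22, SE; limma, adjusted p = 0.184). Ighv3-6 was at 90.8, 0, 32.7 and 0 TPM in UMPS_BKO, against 0, 308, 262 and 56.97 TPM in controls, and Ighv1-53 at 42.0, 7.24, 0 and 0 TPM in UMPS_BKO, against 10.1, 326, 428 and 37.6 TPM in controls. Ighv3-6 and Ighv1-53 overlapped between groups as well. Control replicate 3 held Ighv2-3 at 692 TPM, against at most 40.1 TPM in any other library, and Ighv1-64 at 620.3 TPM, against at most 69.9 TPM. By family, 22 of the tested segments belonged to family 1, with a median log2 difference of −3.64 and 0 called, and 6 to family 5, with a median of −3.68 and 1 called.

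Among genes that act with the V segments in making the heavy chain, 1 was called. Of 31 such genes listed (constant regions, joining segments, receptor partners, octamer factors, recombination and editing, surrogate light chain, secretion) 24 were tested. Of these 1 was called lower, beside 0.0934% of all tested genes, and 0 higher, beside 0.0374%. At an unadjusted p under 0.05, 16 of the 24 were lower, beside 16.4% of all tested genes. The log2 difference was below 0 in 23 of the 24, beside 84.3%, and its median was −2.60, against −0.90 over all genes tested. The called gene was the joining segment Ighj1, at 0 in all 4 UMPS_BKO libraries, against 106, 330.4, 375 and 131 TPM in controls (limma, adjusted p = 0.000243). These control values rested on 71, 102, 49 and 75 reads. Ighj1 too passed the filter through the controls alone, so its test is given as a description. The other joining segments, Ighj2, Ighj3 and Ighj4, overlapped between groups.

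The switched constant regions that were tested, those of IgG and IgA, did not pass. Ighg2c, the constant region of IgG2c, was at 172, 0, 6.19 and 4.67 TPM in UMPS_BKO, against 216, 6877, 3268 and 396 TPM in controls (log2 difference −7.01 ± 1.43, SE; limma, adjusted p = 0.118). The log2 differences of Ighg1, Ighg2b and Ighg3 were −5.43, −5.24 and −5.35 (limma, adjusted p = 0.0899, 0.114 and 0.144). In these 4 IgG genes every UMPS_BKO library lay below every control, beside 4.81% of all tested genes. Igha, the constant region of IgA, overlapped between groups, at 452, 45.1, 119 and 8.39 TPM in UMPS_BKO, against 140, 895, 461 and 128 TPM in controls (log2 difference −2.08 ± 1.05, SE; limma, adjusted p = 0.297).

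The unswitched constant regions overlapped between groups as well. Ighm was at 3425, 365, 657 and 121 TPM in UMPS_BKO, against 1566, 4062, 5835 and 4214 TPM in controls, with a log2 difference of −2.65 ± 0.89 (SE; limma, adjusted p = 0.283). Ighd, the constant region of IgD on naive B cells, had a log2 difference of −2.23 ± 0.83 (SE; limma, adjusted p = 0.283). Ighm rested on 121684, 6775, 16451 and 3606 reads in UMPS_BKO, against 37486, 44625, 27115 and 86088 in controls. UMPS_BKO replicate 4, with 3 Ighv segments, held 3606 Ighm reads beside 136 Ighv reads, and UMPS_BKO replicate 2, also with 3, held 6775 beside 249. These read numbers are not adjusted for transcript length. The octamer-binding factors Pou2f2 and Pou2f1, which bind V segment promoters, had log2 differences of −0.33 and −0.12, while their coactivator Pou2af1 had −2.95 (limma, adjusted p = 0.711, 0.907 and 0.283).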

How the data were processed

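RNA from total splenic B cells was sequenced in 8 libraries, 4 per group. GRCm38 is the build named in the submitters' processing notes, which also list Subread 1.5.2 with featureCounts, the aligner STAR 2.5.2b and bcl2fastq 2.20. The authors deposited 1 table of TPM. Its calculation, annotation, strand setting and treatment of multi-mapping reads were not given in the sources used here. Columns were matched to samples by library name.

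The members and gene lists were chosen with earlier results of these data known. Named segments were those called by the test, the leader of each library, the 5 highest by mean in each group, the highest of each family, segments above 0 in all 8 libraries and textbook segments; of the other heavy chain genes, the 6 with the smallest p, Ighm and Ighd; and Umps. A gene that meets this rule is not reported here. Ighv11-1, Ighv8-2, Ighv1-39, Ighv1-69 and the remaining segments of UMPS_BKO replicates 2, 3 and 4 were chosen for mention once their values were known. So were the octamer factors, Igha and the joining segments other than Ighj1. Coordinates, exon lengths (49056 of 49315 features) and V exon sequences came from GENCODE M21 (GRCm38). Reads were recovered by dividing TPM times exon length by the value of 1 read, and 336 of 337 Ighv values above 0 came out whole within 0.05 reads; over all features, 90.6% to 92.8% of low values (under 30 reads) did. TPM is not a count, so no count model was run.

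Tests used limma 3.58.1 in R 4.3.3 on log2(TPM + 1), with eBayes trend and no covariate, so fold changes of low genes are understated. Python 3.11.15 with numpy 2.4.6, pandas 2.3.3, scipy 1.17.1, edlib 1.3.9.post1 (identity) and matplotlib 3.10.9 gave the other values. Read recovery and the limma fit were tested on simulated data. Alternatives were other pseudocounts, filters, scalings and weights, a replicate block, each library left out, and 2 sets of libraries left out that were chosen after seeing the data.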

Additional observations from a re-analysis of the deposited data

Results flagged for a closer look

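The highest or lowest of 4 libraries was set apart by its distance from the nearest neighbour, as a share of the group's range. The share had to exceed Dixon's critical value, which normally distributed values do by chance in about 1 in 20 groups. A segment above 0 in just 1 of the 4 libraries always exceeds it, so that rate does not cover such segments. UMPS_BKO replicate 1 stood high in its group for the summed Ighv level (1422 TPM), for segments at or above 1 TPM (64) and for the effective number of segments (35.97). It stood high as well for Ighv5-4 (104 TPM), Ighv1-80 (69.3 TPM), Ighv9-3 (54.3 TPM), Ighv1-26 (38.4 TPM), Ighv1-64 (33.3 TPM), Ighv1-82 (23.4 TPM) and Ighv8-8 (23.0 TPM). The same held for Ighv10-1 (18.6 TPM), Ighv4-1 (15.8 TPM), Ighv6-3 (11.5 TPM), Ighv2-3 (9.79 TPM), Ighv14-2 (9.38 TPM) and Ighv12-3 (2.86 TPM). These are not separate events, since all come from 1 library and in each of these segments the other 3 UMPS_BKO libraries were at 0. UMPS_BKO replicate 3 stood high for Ighv11-2 (1.47 TPM, 9 reads).

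Among the controls, replicate 1 stood low for the effective number of segments (17.9) and high for Ighv2-4 (40.7 TPM), which no other library held. Control replicate 3 stood high for Ighv11-2 (80.1 TPM), Ighv2-3 (692 TPM) and Ighv1-64 (620.3 TPM), and control replicate 2 for Ighv15-2 (40.4 TPM).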

How the results depend on the processing

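Counts of calls depended on the settings, while none of the 20 Ighv segments followed through the alternatives changed sign when 1 library was left out. With all libraries 10 genes were called lower and 4 higher, 2 of them Ighv (lower) and 1 in the heavy chain list. Genes called lower (and Ighv among them) numbered 5 (1) with a pseudocount of 5, 1 (0) without a filter, 6 (2) at a mean TPM of at least 5, 6 (2) with the median of ratios, 5 (2) with quantile normalization, 5 (1) without ribosomal RNA-like and mitochondrial features and 1906 (39) with array weights. With a pseudocount of 0.1, 1 Ighv segment was called lower. Genes called higher numbered 1 with a pseudocount of 0.1, 0 without a filter, 1 without ribosomal RNA-like and mitochondrial features and 84 with array weights. The replicate block gave 23 genes, 4 Ighv and 5 heavy chain genes lower; same-numbered libraries had correlations of −0.35 to −0.03 in their deviations, so the numbers do not pair the samples. Leaving out 1 library gave 1 to 231 genes lower, 0 to 17 higher, 0 to 14 Ighv and 1 to 11 heavy chain genes lower. Without control replicate 2 and UMPS_BKO replicate 4, 1 gene and 0 Ighv were lower. Without UMPS_BKO replicates 2, 3 and 4, 0 genes were called in either direction, 0 of them Ighv or heavy chain genes, the lone sample being assumed to vary like the controls. The median then was −0.26, the difference of the summed level −0.85, of richness 0.75 (with all libraries −44), of the effective number 8.32 (−16.04) and of the leading share −2.62 percentage points (26.2). In that setting Ighv5-4, Ighv3-6, Ighv4-1, Ighv1-72, Ighv10-1 and Ighv1-80 turned to 0.98, 0.98, 0.45, 0.10, 0.091 and 0.046. Per 100 TPM of Ighm the summed difference was −1.51. Single omissions moved the summed difference in TPM (−4.17 with all libraries) between −5.27 and −3.27, and richness between −58.9 and −34.1. Ighv11-2 and Ighv5-16 each kept the call in 11 of 20 alternatives and lost it in 9 (adjusted p 0.00589 to 1.00, limma). The cause was not tested. Depth limits low segments: 3 reads of a segment of median length are 0.454 to 3.47 TPM.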
